A study of Ovis aries with 6 samples.

Results

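The insulin-like growth factor (IGF) system was examined in longissimus dorsi muscle of 2 sheep breeds, Small Tail Han (STH) and Qianhua Mutton Merino (QHMM). Its members were taken by gene name from the count table: the ligands IGF1 and IGF2, the receptor that the table lists as IGFR1, the receptor IGF2R, and the binding proteins IGFBP2 to IGFBP7. Of these 10 names, 9 had a row among the 23144 genes of the table, and IGF2R was not analysed here. The row IGFR1 carries the best protein match IGF1R and is the type 1 IGF receptor. The libraries came from 3 QHMM and 3 STH sheep, females aged 1 year that were raised in 1 environment with free access to food. The paper describes a fast before slaughter, when live weight was measured. Each animal gave 1 library of poly(A) RNA, read on an Ion Proton instrument. No animal received a treatment, and the question was which genes differ between the muscles of the breeds (STH vs. QHMM).

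IGF1 and IGF2 are small secreted peptides related to insulin that drive growth and differentiation of muscle through the type 1 receptor, a tyrosine kinase that signals through IRS proteins, PI3K and AKT. IGF2R, also a mannose 6-phosphate receptor, mainly clears IGF2. Nearly all IGF outside cells is held by binding proteins, which carry it, keep it from the receptor, or release it when they are cleaved.

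Each library had 10982191 to 14334544 reads on genes. Normalized counts are scaled with TMM factors (edgeR) to the median library total, and RPKM values, which are counts scaled by gene length and library total, are those of the authors. Where 3 values of a breed are given, they stand in the order of replicates 1, 2 and 3. The first principal component, with 44.1% of the variance, separated the breeds, and the second, with 19.1%, set QHMM replicate 2 and STH replicate 3 apart from the rest. Of 8 skeletal fibre markers, 7 were read in every library and TNNT3 was listed at 0 in all 6. Their summed RPKM was 99191 to 116249 in QHMM and 74271 to 120039 in STH, far above the level of every IGF gene. ACTA1 and CKM gave the most to this sum, while TTN alone, at 87.2 to 168, lay below IGFBP7 in each library.

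In the comparison of the breeds, the receptor IGFR1 was up-regulated and IGFBP5 was down-regulated in STH, and the other 6 members tested did not pass the thresholds. IGFBP2 was too low to be tested. A gene was called when edgeR's quasi-likelihood test gave a false discovery rate (FDR) below 0.05, adjusted over 12506 genes, with an absolute log2 fold change above 0.585 (1.5-fold). That held for 2 of the 8 tested members, beside 3.45% of all genes tested. Normalized counts of the breeds did not overlap for 4 of the 8 members (IGFR1, IGFBP3, IGFBP4 and IGFBP5), beside 24.7% of all genes tested. In 2 of these 4 STH was higher, beside 13% of all genes, and in 2 it was lower, beside 11.7%. The same 4 members had an unadjusted p-value below 0.05, beside 19.2% of all genes. In bulk muscle, fewer cells of a type and less RNA per cell cannot be told apart.

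**Figure D1:**
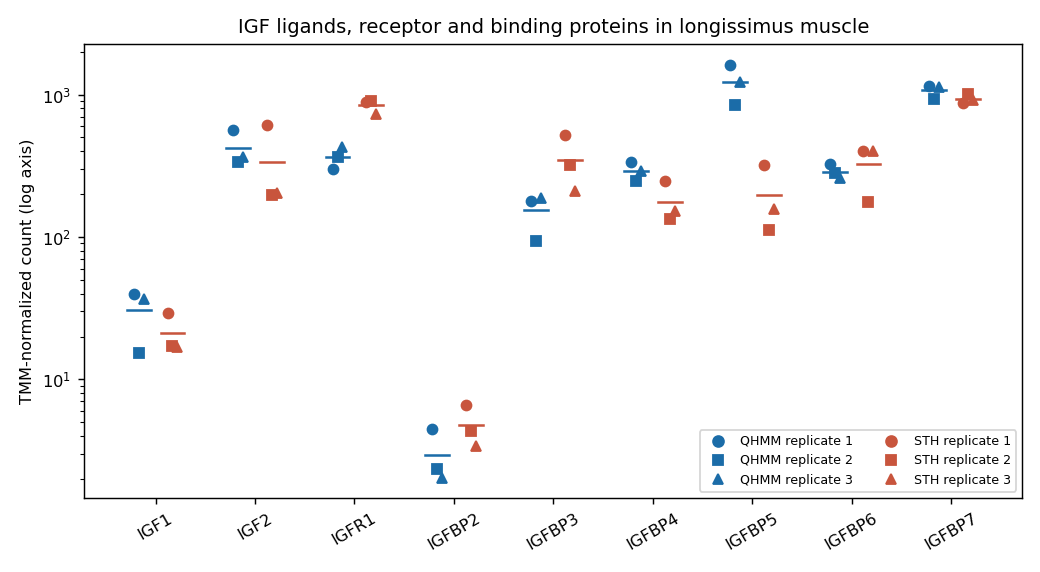
TMM-normalized counts (log axis) of the 9 IGF genes in each library, with QHMM in blue, STH in red, a symbol for each replicate and a line at the breed mean (n = 3). All STH libraries lay above all QHMM libraries for IGFR1 and IGFBP3 and below them for IGFBP4 and IGFBP5.

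Both ligands were read in every library, IGF2 at the higher level. IGF1, the ligand that mediates much of the action of growth hormone, was counted 44, 13 and 36 times in the QHMM libraries and 35, 16 and 15 times in the STH libraries. The 2 breeds overlapped. The means were 30.6 ± 13.3 normalized counts for QHMM and 21.1 ± 6.95 for STH (± SD, n = 3 each), and the log2 fold change was -0.53 (95% interval -1.53 to 0.47, edgeR FDR = 0.573). At counts this low, the counting error of 1 library was wide: the 13 reads of QHMM replicate 2 have an exact 95% Poisson interval of 6.92 to 22.2, which covers counting error only.

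IGF2, the ligand most active in fetal growth, reached 566, 337 and 365 normalized counts in the QHMM libraries against 607, 197 and 203 in the STH libraries. STH replicate 1 was the highest of the 6 libraries, while the other 2 STH libraries were the lowest. Its log2 fold change was -0.33 (95% interval -1.25 to 0.59, edgeR FDR = 0.716). Without STH replicate 1 it was -1.10, still short of the threshold with an FDR of 0.0668. When QHMM replicate 1 was left out, or either of STH replicates 2 and 3, it lay between -0.09 and -0.07. The spread among the STH animals was thus larger than the difference between the breed means. Per length, IGF2 had 4.82 to 10.7 times the RPKM of IGF1 in the QHMM libraries and 5.56 to 10.1 times in the STH libraries, ranges that overlapped.

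IGFR1, the tyrosine kinase receptor that binds both ligands, reached 300.4, 364 and 431 normalized counts in the QHMM libraries. In the STH libraries it reached 883, 903 and 733. The lowest STH library lay well above the highest QHMM library. With means of 365 ± 65.1 for QHMM and 839.6 ± 93.3 for STH (± SD, n = 3 each), it was 2.30-fold higher in STH (95% interval 1.64 to 3.22), a log2 fold change of 1.20 (SE 0.22, edgeR FDR = 0.0193). The estimate stayed between 1.06 and 1.34 with any 1 library left out, but the call was lost without QHMM replicate 1 (FDR = 0.0869), QHMM replicate 2 (FDR = 0.0633) or STH replicate 2 (FDR = 0.0531). The difference also held in RPKM, which edgeR's scaling does not touch: 5.16 to 7.53 in QHMM and 10.6 to 17.9 in STH.

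INSR, the insulin receptor and the closest relative of this receptor, also lay higher in every STH library. Its normalized counts were 457, 399.8 and 490.0 for QHMM and 642, 1000.1 and 707 for STH. The log2 fold change of 0.80 (SE 0.23, edgeR FDR = 0.0854) did not pass the threshold. Within a library the RPKM ratio of IGFR1 to INSR was 0.604 to 0.837 in QHMM and 0.829 to 1.26 in STH. These ranges overlapped.

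**Figure D2:**
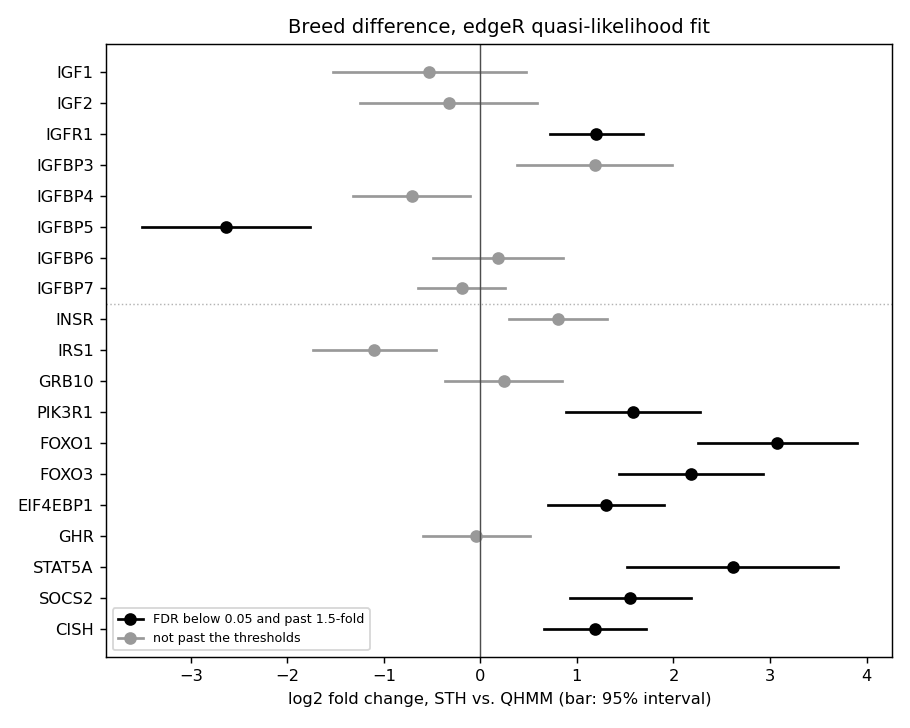
Log2 fold changes (STH vs. QHMM) from the edgeR fit with 95% intervals, for the 8 tested IGF genes above the dotted line and for genes of the IGF axis below it. Black marks genes past both thresholds, which were IGFR1 and IGFBP5 above the line and 7 genes below it.

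Of the binding proteins, IGFBP5 showed the widest difference. It is the most conserved of the binding proteins, is made by differentiating myoblasts and by stromal cells, and binds to extracellular matrix. Its normalized counts were 1622, 842 and 1229.5 for QHMM and 323, 112 and 158 for STH, so the highest STH library had fewer than the lowest QHMM library. The means were 1231 ± 389.9 for QHMM and 198 ± 111 for STH (± SD, n = 3 each). That is 6.21-fold lower in STH (95% interval 3.39 to 11.3), a log2 fold change of -2.63 (SE 0.39, edgeR FDR = 0.0108), which ranked 46 by p-value among all genes tested. The call was kept with any 1 library left out, at log2 fold changes of -3.20 to -2.37. It was lost when QHMM replicate 2 and STH replicate 3 were both left out (-2.72, FDR = 0.0850), where only 11 genes in all were called.

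IGFBP3, which carries most of the IGF in blood, lay higher in every STH library in normalized counts but did not pass the threshold. Its normalized counts were 179.9, 94.3 and 187 for QHMM and 519.7, 319.7 and 209.9 for STH. STH replicate 3 lay just above QHMM replicate 3, and STH replicate 1 lay far above all others. In RPKM the breeds overlapped, with 28.9, 12.8 and 30.7 for QHMM and 98.9, 56.1 and 28.5 for STH. Its log2 fold change was 1.18 (SE 0.36, 95% interval 0.38 to 1.98, edgeR FDR = 0.105), nearly the size of that of IGFR1 with a larger error. DESeq2 (FDR = 0.0271) and edgeR without a filter on low counts (FDR = 0.0426) called it, in fits that called 6.88% and 4.56% of all genes. Without STH replicate 1 the log2 fold change was 0.76 (FDR = 0.249).

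IGFBP4, a binding protein that mostly inhibits IGF action, reached 337, 246 and 291 normalized counts in the QHMM libraries against 246, 133 and 152 in the STH libraries. The lowest QHMM and the highest STH library were nearly equal. Its log2 fold change of -0.71 (SE 0.28, 95% interval -1.32 to -0.10) had an edgeR FDR of 0.188.

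IGFBP6, which prefers IGF2 to IGF1, and IGFBP7, a related secreted protein with low affinity for IGF that is abundant in vessel walls, overlapped between the breeds. IGFBP6 reached 324, 281 and 258 normalized counts in the QHMM libraries against 404, 177 and 399.6 in the STH libraries, where replicate 2 was the lowest of all 6 libraries. Its log2 fold change was 0.19 (95% interval -0.49 to 0.86, edgeR FDR = 0.795), and it was -0.011 without STH replicate 1. IGFBP7 was the steadiest member, with 936 to 1143 normalized counts in QHMM and 877 to 1012 in STH. Its interval, -0.64 to 0.25 on the log2 scale around -0.20 (edgeR FDR = 0.651), leaves room for a decrease of at most 1.56-fold and an increase of at most 1.19-fold in STH.

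IGFBP2 was close to the limit of detection. It was counted 5, 2 and 2 times in the QHMM libraries and 8, 4 and 3 times in the STH libraries, and a difference was not detectable at this depth. IGFBP1, the liver-made binding protein outside the group studied, had 0 reads in all 6 libraries. That allows up to 3 reads per library if reads of the gene were assigned to its row. The fibre marker TNNT3 was also listed at 0, so a row of 0 need not mean an absent transcript.

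The binding proteins were then set side by side within each library, per length. Their summed RPKM was 289 to 484 in QHMM and 255 to 435 in STH and overlapped, but its make-up differed. By RPKM, IGFBP7 made up the largest share in every library, 48.8% to 56.3% in QHMM and 49.2% to 68.4% in STH. IGFBP5 made up 30.1%, 22.0% and 25.3% in QHMM and 7.86%, 3.29% and 4.69% in STH. IGFBP3 made up 5.99%, 4.43% and 6.92% in QHMM and 22.7%, 16.8% and 11.2% in STH. The RPKM ratio of IGFBP3 to IGFBP5, which no scaling between libraries can alter, was 0.199, 0.201 and 0.273 in QHMM and 2.89, 5.12 and 2.38 in STH. IGFBP5 thus exceeded IGFBP3 in all 3 QHMM libraries and IGFBP3 exceeded IGFBP5 in all 3 STH libraries. This ratio was chosen after the values were seen and carries no test.

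**Figure D3:**
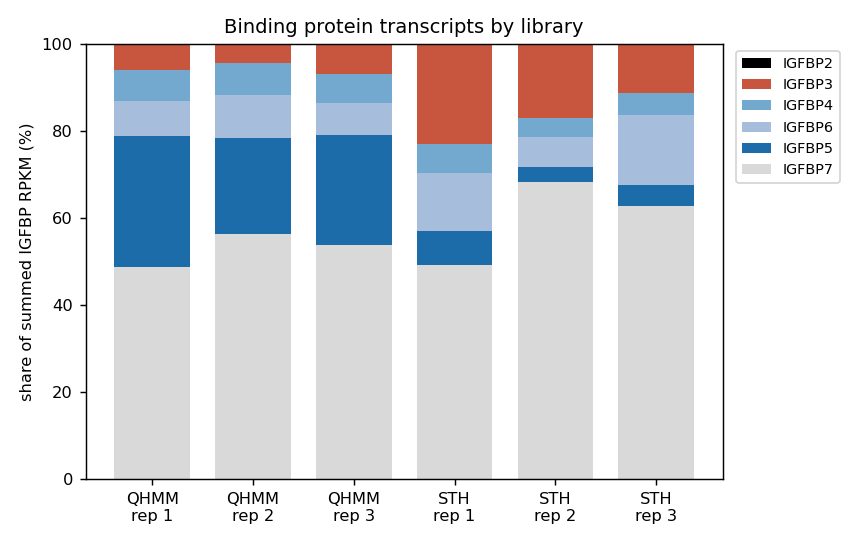
Share of each binding protein in the summed RPKM of the 6 binding proteins, in percent, for each library. IGFBP5 (dark blue) held 22.0% to 30.1% in QHMM and 3.29% to 7.86% in STH, and IGFBP3 (red) held 4.43% to 6.92% in QHMM and 11.2% to 22.7% in STH.

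Over the 6 libraries, the order of the members by mean RPKM was IGFBP7 (206), IGFBP5 (63.1), IGFBP3 (42.7), IGFBP6 (37.2), IGF2 (24.7), IGFBP4 (23.4), IGFR1 (10.6), IGF1 (3.44) and IGFBP2 (0.288). The ranges over libraries separated at the ends of this order only: IGFBP7 lay above IGFBP5, and IGF1 above IGFBP2, without overlap. Each other neighbouring pair overlapped in range, although IGFBP6 exceeded IGF2 in each of the 6 libraries. This mean pools breeds that differ: IGFBP5 held place 2 of the 9 genes in every QHMM library and places 5, 7 and 5 in the STH libraries. IGFBP3 held places 6, 6 and 4 in QHMM and 2, 2 and 3 in STH, and exceeded IGFBP6 in 2 of the 6 libraries. The levels and shares rest on the gene lengths behind the RPKM values, which the counts and RPKM give as 376 bases for IGFBP7 and 482 for IGFBP3 but 865 for IGFBP5 and 4518 for IGFR1. A gene model that holds only part of a transcript could change the place of a gene in this order and the shares. The same length applies to both breeds, so it does not enter the fold change of a gene. In reads, without length, IGFBP5 exceeded IGFBP7 in QHMM replicate 1 (1803 and 1271) and QHMM replicate 3 (1202 and 1110) and was below it in the other 4 libraries.

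For the 2 called members, the genes with the most similar course over the 6 libraries were sought among 11283 others with a mean of at least 20 normalized counts. Likeness was the root-mean-square difference of log2(normalized count + 1) after centring. IGFR1 was closest to LOC101120834, a CYP2U1-like gene (0.0433), SFMBT1 (0.0620) and ERI1 (0.123), where the median gene was at 0.693. LOC101120834 reached 24.3, 28.3 and 34.8 normalized counts in the QHMM libraries against 66.5, 72.1 and 57.6 in the STH libraries, but its edgeR FDR of 0.0660 did not pass, nor did that of ERI1 (0.132). SFMBT1 was called, with a log2 fold change of 1.16 (FDR = 0.0254). IGFBP5 was closest to ADAMTS16, a secreted matrix protease (0.288), LOC101110796, similar to a leucine-rich repeat neuronal protein (0.313), and FOXO6 (0.314), where the median gene was at 1.5. These 3 genes were called, with log2 fold changes of -2.59, -3.28 and -2.79. In each of them the highest library was QHMM replicate 1 and the lowest STH replicate 2, as for IGFBP5. As the genes were picked for a like course over these same libraries, such likeness and the calls follow largely from that choice.

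The other genes of the IGF axis were taken from a list of 54 by role, of which 52 had a row and 43 were tested. In STH, 7 of the 43 were up-regulated and 0 down-regulated, beside 1.62% of all genes tested that were up-regulated and 1.83% that were down-regulated. The test was edgeR's, and before adjustment 18 of the 43 had a p-value below 0.05, beside 19.2% of all genes tested. DESeq2 called 11 up-regulated and 3 down-regulated, beside 2.97% and 3.91% of the genes it tested. The median log2 fold change of the 43 was 0.19, beside 0.02 for all genes tested.

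Among 5 tested extracellular partners, 0 were called by edgeR. Its unadjusted p-value was below 0.05 for 3 of them, beside 19.2% of all genes tested. DESeq2 called all 3, in a fit that called 6.88% of all genes. HTRA1 and ADAM12 are proteases that can cleave binding proteins, IGFBP5 among them. HTRA1 reached 1557, 2251 and 2625 normalized counts in the QHMM libraries against 1246, 933 and 1302 in the STH libraries (log2 fold change -0.89, edgeR FDR = 0.0894). ADAM12 had 69.3, 22.4 and 30.7 in QHMM and 13.3, 1.08 and 6.77 in STH (-2.47, FDR = 0.0743). STC1, a secreted inhibitor of the protease PAPP-A, which cleaves IGFBP4, lay higher in every STH library at 1.36 (FDR = 0.0502). PAPP-A itself had a log2 fold change of -0.57 (FDR = 0.606), and IGFALS, the partner of IGFBP3 in the circulating complex, of -0.84 (FDR = 0.506), both at low counts. Of the IGF2 mRNA-binding proteins, IGF2BP2 was tested (0.77, FDR = 0.272), IGF2BP1 had 0 reads and IGF2BP3 had 0 to 5 reads in each library.

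Next to the receptors, 0 of 9 tested genes were called by edgeR. Before adjustment 4 had an edgeR p-value below 0.05, beside 19.2% of all genes tested. DESeq2 called INSR and IRS1, in a fit that called 6.88% of all genes. IRS1, the docking protein of both receptors, lay lower in every STH library, with 797, 988 and 907 normalized counts for QHMM and 602, 262 and 392 for STH (log2 fold change -1.10, SE 0.29, edgeR FDR = 0.0667). Without STH replicate 1 it was called, at -1.47 (FDR = 0.0189). GRB10, an adaptor that dampens receptor signalling, overlapped between the breeds (0.24, FDR = 0.681). GRB14 had 0 to 4 reads in each library, and IRS2 was not analysed here.

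Of 22 genes from PI3K to mTOR, 4 were up-regulated in STH, beside 1.62% of all genes tested. FOXO1, a transcription factor that AKT holds out of the nucleus, reached 266, 217 and 136 normalized counts in the QHMM libraries against 969.6, 2403 and 1860.1 in the STH libraries, a log2 fold change of 3.08 (SE 0.37, edgeR FDR = 0.00450). FOXO3 had 271, 329 and 286 for QHMM and 679, 1820.4 and 1527 for STH, with 2.18 (SE 0.34, FDR = 0.0114). PIK3R1, a regulatory subunit of PI3K, had 686, 751 and 1061 for QHMM and 1535, 3436 and 2489 for STH, with 1.58 (FDR = 0.0257). PIK3R2, another regulatory subunit, lay lower in every STH library in normalized counts without passing, at -0.68 (FDR = 0.201). EIF4EBP1, a repressor of translation that mTOR inactivates, had 689, 985 and 556 for QHMM and 1465, 1812 and 2226 for STH, with 1.30 (FDR = 0.0306). AKT1 (0.38, FDR = 0.377) and MTOR (0.40, FDR = 0.353) were not past the threshold.

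Of 6 genes of the growth hormone input, which stimulates IGF1 transcription, 3 were up-regulated in STH, beside 1.62% of all genes tested. SOCS2 and CISH are STAT5-induced inhibitors of that input, and their log2 fold changes were 1.55 (edgeR FDR = 0.0193) and 1.19 (FDR = 0.0266). STAT5A reached 621, 494 and 435 normalized counts in the QHMM libraries against 1133, 5845 and 2517 in the STH libraries, a log2 fold change of 2.61 (SE 0.49, FDR = 0.0216). STAT5B, its close paralog, had 1.45 (FDR = 0.0517). Only unique mapped reads were counted, so a read that mapped equally well to both genes was left out. GHR, the growth hormone receptor, had 854 to 1365 normalized counts in QHMM and 879 to 1196 in STH, with -0.04 (95% interval -0.60 to 0.51, FDR = 0.949). FOXO1 and FOXO3 were called with any 1 library left out. PIK3R1 lost its call without QHMM replicate 1, 2 or 3 or STH replicate 2, and EIF4EBP1 without QHMM replicate 1 or 3 or STH replicate 2 or 3. STAT5A lost it without any 1 of the QHMM replicates, and without STH replicate 2 its log2 fold change was 1.81 (FDR = 0.0300). The call was lost for SOCS2 without QHMM replicate 1 or 3 or STH replicate 2, and for CISH without any 1 of the QHMM replicates or STH replicate 2.

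Binding proteins are made largely by cells other than fibres, so marker genes of such cells are given beside them. Of 8 fibroblast and matrix markers 0 were called, and their log2 fold changes were all negative, from -1.38 (the COL1A2 row LOC443512) to -0.34 (the FBLN1 row LOC100037704). The edgeR p-value before adjustment was below 0.05 for 3 of them, beside 19.2% of all genes tested. Their summed RPKM was 526 to 1044 in QHMM and 316 to 657 in STH. The RPKM ratio of IGFBP5 to DCN, a fibroblast marker, was 0.352 to 0.653 in QHMM and 0.0653 to 0.121 in STH. The ratio to the COL3A1 row was 0.384 to 0.546 in QHMM and 0.0961 to 0.272 in STH. Both ratios were lower in STH without overlap, and ratios to the other fibroblast and matrix markers were not taken. The part of fibroblasts in the IGFBP5 result was not tested.

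Among 6 satellite cell and myoblast markers 1 was called, beside 3.45% of all genes tested. It was MYOD1, at -2.61 (edgeR FDR = 0.0292). MYOG, at -1.76 (FDR = 0.0549), also lay lower in every STH library without passing. PAX7 (-1.43, FDR = 0.294, at 4 to 38 reads in each library), MYF5 (-0.0085), CHRND (-0.29) and NCAM1 (-0.31) overlapped between the breeds. The summed RPKM, to which MYOG gave the most, was 73.7 to 112 in QHMM and 15.2 to 62.9 in STH. The RPKM ratio of IGFBP5 to MYOG was 1.24 to 2.04 in QHMM and 0.682 to 1.44 in STH and overlapped. Of 5 adipocyte markers, 4 were down-regulated in STH, beside 1.83% of all genes tested: ADIPOQ (-2.13), PLIN1 (-2.37), LEP (-4.21) and CIDEC (-2.44). LEP had 5, 0 and 1 reads in the STH libraries. FABP4 overlapped between the breeds (-0.04, FDR = 0.980). The summed RPKM of the 5 adipocyte markers, to which FABP4 gave the most in every STH library, was 59.2 to 276 in QHMM and 40.3 to 129 in STH. No ratio of IGFBP5 to an adipocyte marker was taken, and the part of any of these cells in the IGFBP5 result was not tested.

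Of the 7 tested endothelial markers 0 were called and 1 had an unadjusted edgeR p-value below 0.05, beside 19.2% of all genes tested. EMCN (0.67, edgeR FDR = 0.203) and VWF (0.40, FDR = 0.346) lay higher in every STH library in normalized counts, and the other 5 overlapped. Their summed RPKM was 168 to 228 in QHMM and 173 to 276 in STH. The RPKM ratio of IGFBP3 to PECAM1 was 0.270 to 0.502 in QHMM and 0.638 to 1.25 in STH, and that to the TEK row TIE2 was 1.79 to 4.22 and 4.26 to 9.58. The ratios to the other 5 overlapped, that to VWF at 0.502 to 0.965 and 0.880 to 1.86 and that to EMCN at 2.17 to 3.43 and 3.01 to 4.67. The part of endothelial cells in the IGFBP3 values was not tested. The CLDN5 row was listed at 0 in all libraries, and KDR was not analysed here. Smooth muscle and pericyte markers had 0 of 7 called (1 before adjustment), with summed RPKM of 142 to 348 in QHMM and 209 to 369 in STH. Leukocyte markers had 0 of 7 called (2 before adjustment), with summed RPKM of 271 to 361 in QHMM and 136 to 275 in STH. CD74 (-0.97, edgeR FDR = 0.0791) gave the most to this sum. The log2 fold changes of PTPRC (-0.24), CSF1R (-0.55) and AIF1 (-0.80) were also negative. Those of CD68 (0.25), CD14 (0.56) and LYZ (0.73) were positive. Of all genes tested, 19.2% had an edgeR p-value below 0.05 before adjustment.

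**Figure D4:**
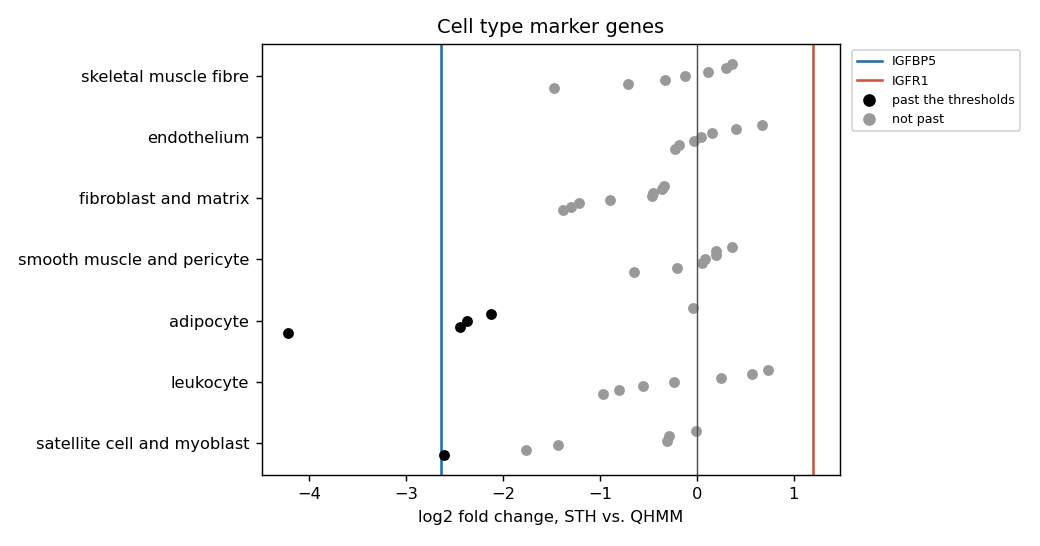
Log2 fold changes (STH vs. QHMM, edgeR) of marker genes of 7 cell types, 1 point per tested gene, with black for genes past both thresholds and lines at IGFBP5 (-2.63) and IGFR1 (1.20). The black points are MYOD1 and 4 adipocyte genes, and no marker reached the value of IGFR1.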

How the data were processed

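Reads were filtered, mapped to the sheep genome Oar 3.1 and reduced to unique mapped reads by the authors, who deposited counts per gene without normalization and RPKM values. The aligner, counter and annotation are not given in the sources used here. The deposited RPKM values scale each count by 1 length per gene and by the sum of counts in its library. All 12 sample columns were used.

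In R 4.3.3, counts were tested with edgeR 4.0.16 (TMM, filterByExpr, glmQLFit and glmQLFTest, breed as the only term), with the Benjamini-Hochberg FDR over 12506 genes. EBSeq, the program of the study, was not installed. SEs were obtained from the log2 fold change and the F statistic, and intervals from the t distribution. Listed genes absent by name were taken by best protein match (E-value at most 1e-40). Named genes were all members, called genes of the axis, 7 set axis genes and the 3 nearest patterns of each called member. STC1, HTRA1, ADAM12, PAPP-A, IGFALS, IGF2BP2, IGF2BP1, IGF2BP3, IGFBP1, PIK3R2, AKT1, MTOR, STAT5B and TNS3 were named after their values were seen. All ratios were also chosen after their values were seen. Members and lists were chosen with earlier results of these data known. With 3 animals a breed, the smallest exact permutation p for 1 gene is 0.1. The scripts were tested on simulated counts with known changes. Alternatives used DESeq2 1.42.0 and limma 3.58.1, and plots matplotlib 3.10.9.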

Additional observations from a re-analysis of the deposited data

How the results depend on the processing

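The 2 member calls (IGFR1 and IGFBP5) were made in all settings that kept the 6 libraries except limma-trend on unfiltered log2(RPKM + 1). That fit called 0 of 9 members (3 with an unadjusted p-value below 0.05), 3 other axis genes and 78 genes in all. DESeq2 and edgeR without a filter on low counts called 3 members each, and 14 and 12 other axis genes against 7, while their calls over all genes were 956 and 806 against 432. With 1 library left out, 1 to 2 members and 2 to 10 other axis genes were called, while calls over all genes were 131 to 535. Without QHMM replicate 2 and STH replicate 3 together, edgeR called 0 members (3 with an unadjusted p-value below 0.05) and 0 other axis genes (17). In that fit 2 libraries a breed remained and 11 genes in all were called. The cause of the other changes was not tested. IGFBP6 changed sign to -0.011 without STH replicate 1 (range 0.47 to -0.011 with 1 library left out) and to -0.0077 without both of those libraries. GHR changed sign to 0.091, 0.093 and 0.091 with limma-trend on log2(RPKM + 1), log2(RPKM + 0.1) and unfiltered log2(RPKM + 1), to 0.22 without QHMM replicate 3 (range -0.21 to 0.22 with 1 library left out) and to 0.043 without STH replicate 3. The other 17 tested members and called or set axis genes kept their sign in every setting that gave a value. The signs of the nearest patterns and of genes named after their values were seen were not followed. Deviations of same-numbered libraries correlated at 0.226, -0.038 and -0.13, and not every library correlated best with its own number, so the numbers were not taken to pair animals. A replicate block added to the model gave 2 member calls, 9 calls among the other axis genes and 457 over all genes.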

Other observations

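Gene order was looked up in the RefSeq table of a later assembly (ARS-UI_Ramb_v3.0), where all 9 members were found by name. IGFBP2 and IGFBP5 are next to each other there, and so are IGFBP3 and IGFBP1. Within the first pair IGFBP5 was abundant and lower in STH while IGFBP2 had 2 to 8 reads in each library. Within the second, IGFBP3 was read in every library and IGFBP1 was listed at 0, as was the fibre marker TNNT3. Of 6 other neighbours of members that were tested, 1 was called and 5 were not, where 3.45% of all genes tested were called. The called one, on the other side of IGFBP3, is TNS3, a focal adhesion protein, which was named after its values were seen. TNS3 reached 141, 169.8 and 230.2 normalized counts in the QHMM libraries against 549, 1156 and 406 in the STH libraries, in the order of replicates 1, 2 and 3. It was up-regulated in STH, its log2 fold change being 1.96 (SE 0.38, edgeR FDR = 0.0225).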
